A study of Zea mays with 12 samples.

Results

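In the growing tip of the maize primary root, 330 of 42976 counted features were more abundant 48 h than 24 h after transplanting while the roots were well-watered. They were taken by 3 conditions on the well-watered libraries alone. The mean at 48 h had to be at least 3 CPM (counts per 1000000 counts on genes, computed from the deposited raw counts), it had to be at least 1.8 times the mean at 24 h, and each 48 h library had to lie above each 24 h library. Of the members, 327 were annotated nuclear genes and 3 carried the names of assembled transcripts, and all 330 passed the filter on low counts that left 26746 features for testing. The conditions used the well-watered values, so the rise itself is a description with no test, and the values under water stress are what it was set against.

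All 4 groups were seedlings of the inbred line FR697, raised at 29 °C in darkness in vermiculite wetted with 1 mM CaSO4, and they differed in water potential, harvest time and the length of tip taken. The groups WW24 and WW48 stood at −0.02 MPa (well-watered) and the groups WS24 and WS48 at −1.6 MPa (water-stressed), with harvests 24 h and 48 h after transplanting and 3 libraries each. Each library pooled root tips that held the whole elongation zone, 12 mm of a well-watered and 7 mm of a stressed root, and by the study's account each replicate was a separate experiment. Water status and segment length therefore cannot be told apart in comparisons of WS with WW. For WS48 the study took WW24 as a developmental control, with roots of about equal length, and WW48 as a control of equal age. Age and root length both differ between WW24 and WW48 and cannot be told apart there. Since whole tips were sequenced, fewer cells of a type and less RNA per cell cannot be told apart either.

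In a root tip, cells leave the meristem, lengthen severalfold in the elongation zone and then begin to mature, while secreted proteins loosen or stiffen the wall and phenolic and terpenoid products are laid down or released. Many secreted proteins of the root, among them peroxidases, thaumatin-like proteins and PR-1 relatives, are also known as defence proteins that respond to jasmonate and ethylene. Well-watered maize primary roots elongate quickly over these days, while roots at low water potential elongate slowly and keep a shorter elongation zone.

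Of the 330 members, 70 carried a description and 260 did not. The descriptions came from lists that the study had drawn up from differences between WS and WW in these libraries (61 members). The rest came from its list of ortholog matches with cotton that contain stress-responsive genes (9 members). For the first lists the study asked that WS48 differ in one direction from both WW24 and WW48. The described members are therefore not a neutral sample where stress is concerned. The share of genes with a known role in what follows is small, and the named genes do not stand for the undescribed majority.

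The libraries held 40005384 to 54863708 counts on genes, so 1 count was worth 0.0182 to 0.0250 CPM. Of the reads, 12.7 to 23.1% were not aligned, with the highest share in WS24 replicate 3. Pairs of replicates differed by more than sampling noise, with a chi-square per feature of 5.30 to 32.7. The median feature moved by 0.01 (log2) from WW24 to WW48 and by 0.00 from WS24 to WS48. Stressed and well-watered libraries differed in composition: on the CPM scale the median feature was 0.15 (log2) higher in WS24 than WW24 and 0.13 higher in WS48 than WW48, and after TMM scaling, which sets most features level between libraries, these medians were 0.01 and 0.01.

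Among markers of cell types that a tip could hold, no described feature was a member. The 9 dividing-cell genes summed to 131 to 142 CPM in WW24 and 131 to 152 CPM in WW48, and the 6 xylem and secondary wall genes to 34.7 to 52.8 and 49.4 to 68.5 CPM, so both lists overlapped between the well-watered ages. Under stress the dividing-cell genes stood at 161 to 186 CPM in WS24 and 146 to 147 CPM in WS48, and the xylem genes at 138 to 145 and 79.5 to 94.7 CPM. The 4 Casparian strip and suberin genes were all under 1 CPM on average in well-watered tips, at 0.452 to 1.02 CPM in sum over those 6 libraries, and at 15.2 to 47.5 CPM in stressed ones. The 2 root hair genes stood at 6.87 to 13.2 CPM in well-watered tips and 41.1 to 61.9 CPM in stressed tips, and the single stored seed protein gene at 0.456 to 0.943 and 13.1 to 23.8 CPM. All of these markers were described because the study listed them as changed by stress, and their part in the results was not tested.

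WW48 replicate 1 stood apart for the members. Their summed level was 3681, 4074 and 4150.5 CPM in the WW24 libraries and 11478, 7502 and 7241 CPM in the WW48 libraries. The first WW48 library was the highest of its group for 233 members (70.6%), against 33.2% of all features tested. Without it, 260 features met the 3 conditions, 211 of them among the 330. The sum over those 211 was 1157, 1381 and 1481 CPM in WW24 and 4073, 3145 and 2952 CPM in WW48, an order that the conditions set. For 109 members the ratio of means was under 1.8 without that library.

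A stressed library stood apart in the same way. The members summed to 4865, 5426 and 4636 CPM in WS24 and to 5095, 4834 and 6416 CPM in WS48. WS48 replicate 3 was the highest of its group for 276 members (83.6%), against 42.3% of all features tested, and the other WS48 libraries lay within the range of WS24. The plot of summed levels shows the narrow WW24 group, the high WW48 group and the stressed libraries between them.

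**Figure D1:**
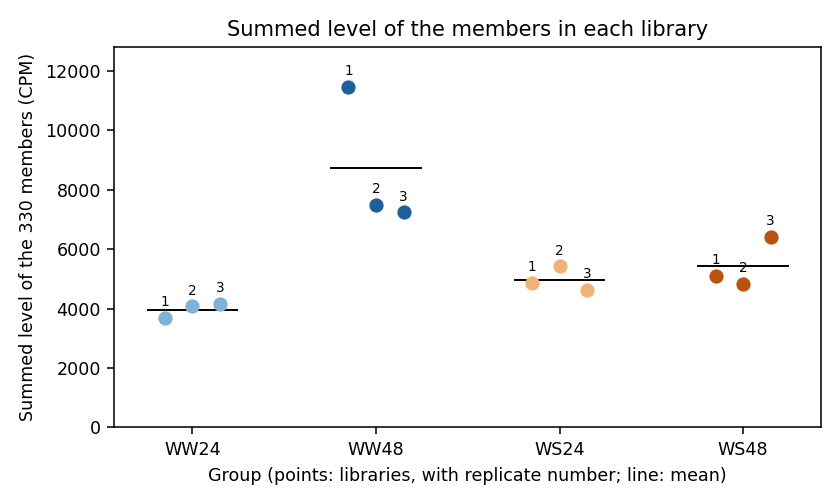
Summed level of the 330 members in CPM (y axis) in each of the 12 libraries by group (x axis), with the replicate number over each point and a line at each group mean. WW48 replicate 1 reached 11478 CPM, the other WW48 libraries 7502 and 7241 CPM, and the 6 stressed libraries 4636 to 6416 CPM.

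The ratio of WW48 to WW24 means had a median of 2.20 among the members, with quartiles of 1.96 and 2.71 and a highest value of 56.4. Of the members, 68 had at least 3 times the WW24 level, 16 at least 5 times and 8 at least 10 times. As the conditions set, they made up 1.82% of the 18158 features with 3 CPM or more in WW48. Just inside the ratio limit lay features at 1.8002 and 1.8007 times, and just outside lay 1.7969 and 1.7936. Just inside the level limit lay WW48 means of 3.01 and 3.02 CPM, and just outside 2.97 and 2.93 CPM.

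Most members were of low abundance. The median WW48 mean was 9.15 CPM and 173 members lay under 10 CPM, while 15 reached 100 CPM, 7 of them described. The median coefficient of variation between replicates, over members, was 23.4% in WW24 and 28.4% in WW48, and 19.2% and 21.1% in WS24 and WS48. The WW libraries chose the members, so their spread is not independent of the conditions, and the spread over all features is not given here. The steepest ratios came from uneven libraries. Of the 8 members at 10 times or more, WW48 replicate 2 was the highest library in 6 and replicate 1 in 2, and only 1 had a description.

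That one was Zm00001d052673, of the chalcone and stilbene synthase family, which build the carbon skeletons of flavonoids and related polyketides. It stood at 0.126, 0.0469 and 0.429 CPM in WW24 and 4.56, 8.45 and 1.36 CPM in WW48, a ratio of 23.9. In stressed tips it was at 5.48, 4.92 and 3.35 CPM in WS24 and 15, 10 and 25.8 CPM in WS48. The WW24 libraries lay below all others, WS24 overlapped WW48, and every WS48 library was above every WW48 library. The highest ratio of all belonged to Zm00001d029388, an undescribed feature named after its values were seen. It had 0.0841, 0.117 and 0.0858 CPM in WW24, 2.66, 11.8 and 1.76 CPM in WW48 and no more than 0.494 CPM in any stressed library.

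The stressed levels fell on either side of the well-watered range. The WS48 mean lay below the WW24 mean for 140 members, between the WW24 and WW48 means for 128 and above the WW48 mean for 62. At WS24 these numbers were 163, 107 and 60. Over the 2 times, 126 members were below WW24 at both, 80 between at both and 47 above WW48 at both. Both places were set against the same WW means, and the shares over all features were not computed. No member went from below WW24 at WS24 to above WW48 at WS48, and 2 went the other way. The WS48 mean was nearer WW24 than WW48, on the log2 scale, for 208 members (63%), against 51.5% of all features tested. These counts use the same WW libraries as the conditions, and a group chosen to be high in WW48 will tend to lie above WS48, so they are given with no test.

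Every WS48 library lay below every WW48 library for 192 members (58.2%, against 17.8% of all features tested) and above for 31 (9.39%, against 35.5%). After TMM scaling the same counts were 213 (64.5%, against 25.2%) and 28 (8.48%, against 26%). Without WW48 replicate 1, 52 members had every WS48 library above the remaining WW48 libraries. With fewer libraries that order is easier to meet for any feature, and the share over all features was not computed for this omission. At 24 h, every WS24 library lay below every WW24 library for 110 members (33.3%, against 18.9%) and above for 102 (30.9%, against 36.6%). After TMM scaling these counts were 115 (34.8%, against 26.8%) and 92 (27.9%, against 27.8%), so the share above was then near that of all features. The counts over all 6 stressed libraries that follow are on the CPM scale and were not repeated after TMM scaling. All 6 stressed libraries lay below all 6 well-watered ones for 68 members (20.6%, against 9.82% of all features tested), of which 46 were described. They lay above for 24 (7.27%, against 22.9%), of which 8 were described. Since descriptions went with a difference between WS and WW, that share of described members follows from how the descriptions were made.

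**Figure D2:**
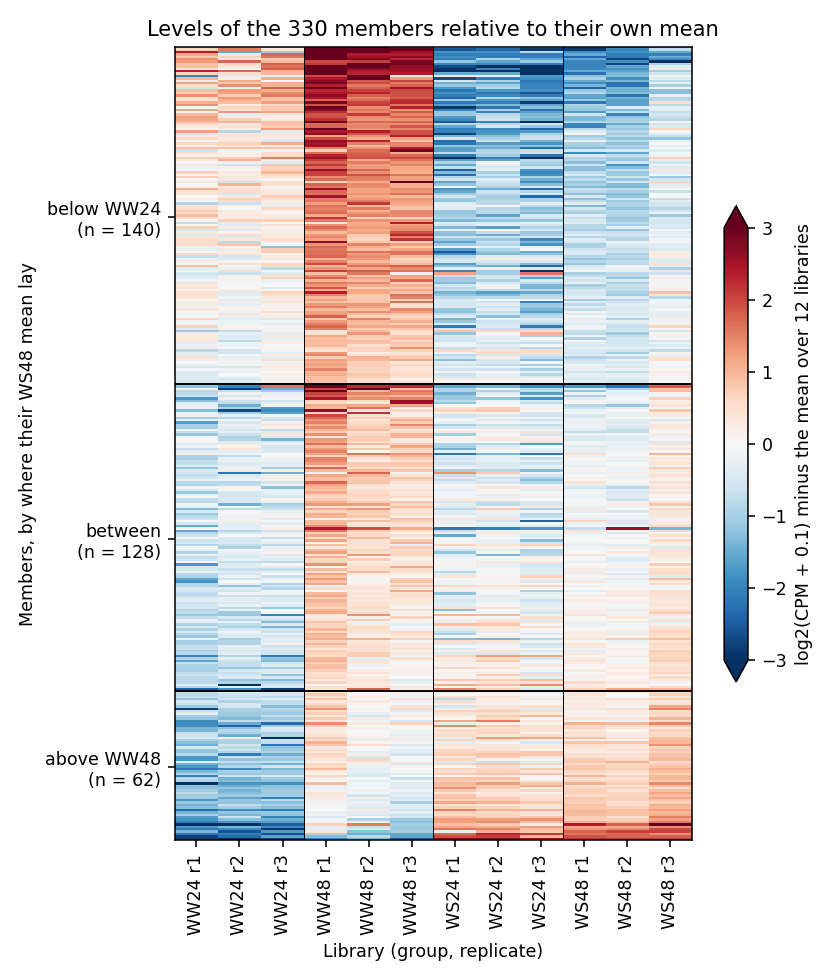
Level of each of the 330 members (y axis) in the 12 libraries (x axis) as log2(CPM + 0.1) minus the member's mean over all libraries, with colours cut at 3 in size. Members are grouped by whether their WS48 mean lay below the WW24 mean (140), between the WW24 and WW48 means (128) or above the WW48 mean (62), and within a group ordered by WS48 relative to WW48. WW48 replicate 1 and WS48 replicate 3 are the reddest columns of their groups.

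Several of the more abundant described members were oxidoreductases that stood lower in stressed tips. The highest described member was Zm00001d020400, described as elicitor-activated gene 3-1, whose Arabidopsis namesake is related to cinnamyl alcohol dehydrogenases. It had 399.8, 292 and 215 CPM in WW24, 823, 439 and 451 CPM in WW48, 47.5, 118 and 66.2 CPM in WS24 and 69.6, 86.9 and 97.8 CPM in WS48. All 6 stressed libraries lay below all 6 well-watered ones, and the WW48 mean was 6.74 times that of WS48.

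The NAD(P)-linked oxidoreductase Zm00001d031666, of a family that in Arabidopsis holds aldo-keto reductases, had 249.5, 161 and 102 CPM in WW24 and 555, 254 and 281 CPM in WW48. It had 5.22, 5.17 and 6.45 CPM in WS24 and 17.3, 16.1 and 23.9 CPM in WS48. The NADPH:quinone oxidoreductase Zm00001d047441, which passes electrons from NADPH to quinones, had 58.3, 60 and 53.6 CPM in WW24, 223, 96.4 and 101 CPM in WW48, 5.06, 7.28 and 3.57 CPM in WS24 and 16.6, 16 and 31.1 CPM in WS48. In both genes no stressed library reached the well-watered range, and the 4 groups did not overlap one another. Both were called higher with time under stress by the test given further on, the first only while all 6 stressed libraries were in the fit.

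A pair of genes with adjacent identifiers, Zm00001d049031 and Zm00001d049032, were both described as zinc-binding dehydrogenases. The first had 1.56, 1.59 and 2.79 CPM in WW24, 5.85, 3.67 and 3.87 CPM in WW48, 0.0234, 0.135 and 0 CPM in WS24 and 0.429, 0.381 and 1.5 CPM in WS48. The second had 1.73, 1.36 and 4.74 CPM in WW24, 33.3, 8.96 and 8.43 CPM in WW48, 0.0468, 0.247 and 0.025 CPM in WS24 and 0.262, 0.291 and 1.54 CPM in WS48. The pair shared one pattern, with most of the stressed values under 1 CPM and WS48 replicate 3 as the highest stressed library. If these are near-identical copies, reads could have been split between them, so their separate levels are uncertain.

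The 4 members in the lists of jasmonate and ethylene had all 6 stressed libraries below all 6 well-watered ones. So did 46 of the 70 described members, 20.6% of all members and 9.82% of all features tested. Jasmonate is a lipid-derived hormone of wound and defence responses, and ethylene acts beside it on many of the same genes. Of the 8 described features tested in the oxylipin and jasmonate list, 2 were members. The 12-oxophytodienoate reductase 1 gene Zm00001d011097, of a family that reduces oxylipins on and beside the jasmonate pathway, had 83.7, 88.4 and 116 CPM in WW24 and 308, 155 and 150.0 CPM in WW48. It had 11.8, 17 and 16 CPM in WS24 and 28, 23.2 and 54.2 CPM in WS48, all below the well-watered libraries, with WS48 above WS24 in every library. The jasmonate-zim-domain gene Zm00001d020614, whose Arabidopsis namesake represses jasmonate responses, went from a mean of 2.07 ± 0.981 to 4.09 ± 1.12 CPM (SD, n = 3) when well-watered and was at 0.292 ± 0.122 and 0.492 ± 0.199 CPM in WS24 and WS48.

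Of the 9 described features of ethylene, 2 were members, both named after transcription factors that bind defence promoters in Arabidopsis. The ethylene response factor 1 gene Zm00001d019734 had 5.53, 3.58 and 6.35 CPM in WW24 and 14.1, 7.6 and 8.32 CPM in WW48, against 0.421, 0.472 and 0.425 CPM in WS24 and 0.643, 0.381 and 1.74 CPM in WS48. The ethylene responsive element binding factor 1 gene Zm00001d026191 had 8.35, 5.65 and 5.36 CPM in WW24 and 14.3, 10 and 12.7 CPM in WW48, against 2.08, 2.65 and 2.25 CPM in WS24 and 2.48, 2.64 and 3.07 CPM in WS48. The single member among 112 described transcription factors taken by family name was Zm00001d015515, named for Arabidopsis WRKY40, a regulator of defence. It was at 13.7 ± 0.477 and 26.8 ± 10.8 CPM in WW24 and WW48 and at 2.15 ± 0.634 and 4.61 ± 2.4 CPM in WS24 and WS48.

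Of 48 described features in the list of defence proteins, 6 were members, and every WS48 library lay below every WW48 library for 4 of them, as it did for 58.2% of all members and 54 of the 70 described ones. The most abundant was Zm00001d029558 of the CAP superfamily, which holds the secreted PR-1 proteins. Its levels were 123, 93.9 and 112 CPM in WW24, 382, 217 and 159 CPM in WW48, 20, 17.9 and 12.7 CPM in WS24 and 14.8, 11.6 and 44.4 CPM in WS48. All stressed libraries lay below all well-watered ones, with WS48 replicate 3 the highest among them. The chitin elicitor receptor kinase 1 gene Zm00001d048016, whose Arabidopsis and rice counterparts perceive fungal chitin, had 0.82, 0.726 and 1.48 CPM in WW24 and 6.49, 2.86 and 3.25 CPM in WW48 and at most 0.0870 CPM in a stressed library.

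Thaumatin-like proteins, also called PR-5 proteins, gave 2 members that parted under stress. Zm00001d022637 went from 3.55 ± 1.4 to 13.9 ± 4.68 CPM when well-watered and stood at 0.639 ± 0.301 and 0.403 ± 0.187 CPM in WS24 and WS48. Zm00001d047939 went from 6.06 ± 0.754 to 12.1 ± 1.32 CPM and stood at 9.14 ± 2.54 and 11.6 ± 2.48 CPM in WS24 and WS48, so that its WS48 libraries overlapped WW48. Dirigent-like proteins, which steer the coupling of phenolic radicals, gave a further 2. Zm00001d023570 had 10.2, 7.16 and 6.13 CPM in WW48 and 8.1, 7.71 and 12.1 CPM in WS48, which overlapped, while Zm00001d004753, named after its values were seen, had 2.62, 4.39 and 2.71 and 1.17, 0.739 and 1.78 CPM, which did not.

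Wall proteins of several kinds had 1 or 2 members each, where 4.64% of the 1507 described features tested were members. Of 29 described peroxidases, 1 was a member. Secreted plant peroxidases stiffen walls or make reactive oxygen there. Zm00001d007160 had 100.3, 167 and 125 CPM in WW24, 370.1, 193 and 239.7 CPM in WW48, 13, 37.1 and 29.4 CPM in WS24 and 22.4, 25 and 37.2 CPM in WS48, without overlap between stressed and well-watered libraries. Of 17 described expansins, which loosen walls, 1 was a member. Expansin 11 (Zm00001d035111) went from 2.11 ± 1.01 to 6.89 ± 2.76 CPM when well-watered and was at 0.141 ± 0.0162 and 0.2 ± 0.191 CPM in WS24 and WS48. Of 51 described enzymes and proteins of wall polysaccharides, 2 were members. The family 17 glycosyl hydrolase Zm00001d007896, of a family of glucanases, averaged 14.4 ± 2.74 CPM in WW48 against 2.99 ± 0.33 CPM in WS48. The Ole e 1 allergen and extensin family gene Zm00001d007157 was at 6.19 ± 1.11 and 0.709 ± 0.228 CPM.

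Cell wall invertase 2 (Zm00001d025354), which splits sucrose outside the cell, was 1 of 2 members among 41 described genes of sugar transport and metabolism. It had 2.42, 1.34 and 2.62 CPM in WW24 and 6.63, 16.1 and 2.94 CPM in WW48, with its highest value in WW48 replicate 2, and at most 0.870 CPM in a stressed library. The other, Zm00001d028151, named for an Arabidopsis carrier of polyols and monosaccharides, went the other way under stress. It had 6.16, 7.69 and 5.32 CPM in WW24, 16.3, 12.4 and 9.49 CPM in WW48, 44.2, 43 and 48.7 CPM in WS24 and 45.1, 42.9 and 52 CPM in WS48, so that the stressed libraries lay above all well-watered ones and overlapped between the 2 times.

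Hormone synthesis was represented by 2 genes among 10 described features of gibberellin, cytokinin, brassinosteroid and strigolactone. The ent-kaurenoic acid hydroxylase 2 gene Zm00001d047830, for a step of gibberellin synthesis, had 1.07, 2.06 and 0.815 CPM in WW24 and 18.3, 6.26 and 5.83 CPM in WW48, a ratio of 7.69. Its stressed libraries ranged from 0 to 0.326 CPM. The carotenoid cleavage dioxygenase 7 gene Zm00001d002736, for a step of strigolactone synthesis, had 2.21, 1.92 and 2.44 CPM in WW24 and 7.53, 4.29 and 5.09 CPM in WW48, then 0.14, 0.157 and 0.05 CPM in WS24 and 0.143, 0.246 and 1.43 CPM in WS48. Stressed libraries lay below well-watered ones in both genes, and the last WS48 library of the second was its only stressed value over 1 CPM. The auxin-responsive SAUR gene Zm00001d031146, of a family of small proteins that promote growth, was at 1.6 ± 0.37 and 3.5 ± 0.61 CPM in WW24 and WW48 and at 0.0698 ± 0.0461 and 0.258 ± 0.0653 CPM in WS24 and WS48. No member was found among 19 described features of abscisic acid, the main hormone of water stress, or among 41 described heat shock and LEA proteins. Since 4.64% of all described features tested were members, lists of these sizes would hold few at that share.

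Both members among 15 described features of nitrogen uptake and assimilation stood far below well-watered levels under stress. The nitrate transporter 2.4 gene Zm00001d014976, whose Arabidopsis namesake takes up nitrate at low supply, had 6.52, 9.04 and 5.25 CPM in WW24, 10.6, 11.3 and 18.8 CPM in WW48, 1.12, 0.809 and 1.15 CPM in WS24 and 0.596, 0.672 and 0.196 CPM in WS48. Its 2 time courses ran in opposite directions, with no overlap between the times in either treatment. The amino acid permease 6 gene Zm00001d035243, an importer of amino acids, had 6.05, 4.46 and 4.75 CPM in WW48 and 0.977, 1.39 and 1.26 CPM in WS48. Allantoinase (Zm00001d026635, named after its values were seen), which opens the ring of the nitrogen-rich purine product allantoin, was at 7.91 ± 1.23 and 14.7 ± 1.74 CPM in WW24 and WW48 and 2.82 ± 0.0916 and 2.91 ± 0.627 CPM in WS24 and WS48.

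A smaller set stood higher in stressed tips than at either well-watered age. The widest difference belonged to Zm00001d038891, described as a methyltransferase that uses S-adenosylmethionine, the common donor of methyl groups. It had 6.33, 5.3 and 7.18 CPM in WW24 and 11.9, 17.2 and 8.23 CPM in WW48, then 327, 308 and 272 CPM in WS24 and 211, 209 and 203 CPM in WS48. The stressed libraries were far above the rest, the WS48 mean was 16.7 times that of WW48, and WS48 lay below WS24.

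This set held genes of transporter families, and the substrates of these members were not examined. The natural resistance-associated macrophage protein 1 gene Zm00001d015133, of a family of metal ion carriers, had 8.33, 3.42 and 6.62 CPM in WW24, 26.7, 8.8 and 10.6 CPM in WW48, 18, 45.4 and 37.8 CPM in WS24 and 73, 87.5 and 88.3 CPM in WS48. It was high in WW48 replicate 1, which overlapped WS24, and every WS48 library was above every other library. The MATE efflux gene Zm00001d053234, of a family that exports organic acids and secondary products, had 4.44, 4.64 and 3.17 CPM in WW24, 10.3, 7.16 and 6.83 CPM in WW48, 66.1, 96.4 and 84.7 CPM in WS24 and 59.7, 65 and 51.7 CPM in WS48. It was the only member among 40 described features listed as other transporters, and all its stressed libraries lay above all well-watered ones.

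Genes of lipids and sterols were also found here. The fatty acid reductase 1 gene Zm00001d000107, whose Arabidopsis counterpart makes fatty alcohols of suberin, had 1.83, 2.58 and 4.27 CPM in WW24, 5.3, 7.41 and 4.36 CPM in WW48, 51.8, 54.9 and 26.4 CPM in WS24 and 50.5, 45 and 45.8 CPM in WS48. The cycloartenol synthase 1 gene Zm00001d014695, for the first cyclic precursor of plant sterols, had 1.73, 2.2 and 2.44 CPM in WW24, 6.91, 6.53 and 3.21 CPM in WW48, 18, 20.2 and 14.8 CPM in WS24 and 15.5, 14.1 and 23 CPM in WS48. Stressed libraries lay above well-watered ones in both, by more than WW48 lay above WW24. The other member among 12 described terpenoid and sterol features, the terpenoid cyclase Zm00001d024512, behaved differently, at 49.4 ± 13.9 and 109 ± 24.2 CPM in WW24 and WW48 and 27.2 ± 1.42 and 21.4 ± 7.86 CPM in WS24 and WS48. The GDSL-like lipase Zm00001d014244 went from 2.95 ± 0.494 to 13.3 ± 7.32 CPM when well-watered and stood at 0.384 ± 0.268 and 0.674 ± 0.426 CPM under stress.

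The hydroxyproline-rich glycoprotein gene Zm00001d022420, of a class of structural wall proteins, had 1.89, 2.65 and 2.29 CPM in WW24, 9.79, 12 and 6.4 CPM in WW48, 28.3, 20.1 and 20.7 CPM in WS24 and 19.2, 18.7 and 23.6 CPM in WS48. The protein kinase Zm00001d036879 had 12.8, 9.61 and 11 CPM in WW24, 27.8, 18.7 and 16.1 CPM in WW48, 37.5, 40.3 and 32.5 CPM in WS24 and 48, 45.6 and 55.1 CPM in WS48. In both, the 6 stressed libraries lay above the 6 well-watered ones. The kinase was 1 of 6 members among 140 described kinases, and for 4 of these 6 every WS48 library lay below every WW48 library, against 54 of the 70 described members.

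Of 34 described features of phenylpropanoids and lignin, 5 were members, and they fell on both sides. The O-methyltransferase Zm00001d047194, of a family that methylates phenolic compounds, had 7.57, 23.5 and 22.2 CPM in WW24 and 154, 77.2 and 63.4 CPM in WW48, the highest ratio (5.53) among described members over 50 CPM in WW48. In stressed tips it was at 155, 192 and 142 CPM in WS24 and 169, 134 and 217 CPM in WS48, near WW48 replicate 1 already at 24 h. The other O-methyltransferase, Zm00001d032083, had 102, 82.6 and 63.2 CPM in WW48 and 15.3, 12.3 and 23 CPM in WS48, with all stressed libraries below all well-watered ones. The remaining 3 were the chalcone and stilbene synthase and the dirigent-like pair given above.

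**Figure D3:**
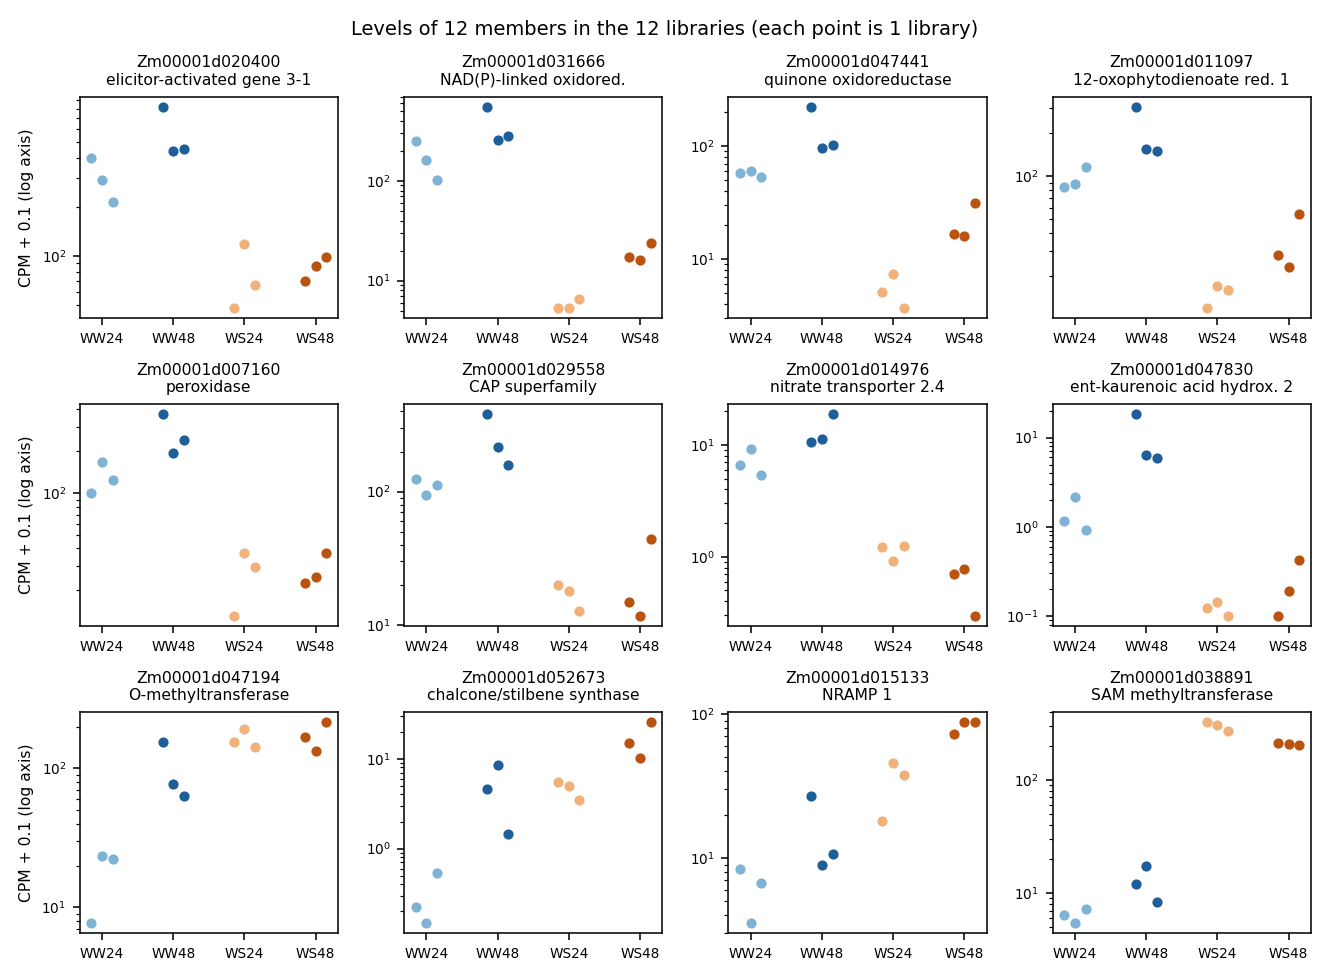
Level as CPM + 0.1 (y axes, log scale, a separate range in each panel) of 12 members in the 12 libraries by group (x axes), each point 1 library. The first 8 panels show genes whose stressed libraries lay below all well-watered ones, such as the quinone oxidoreductase at 3.57 to 31.1 CPM against 53.6 to 223 CPM, and the last 4 show genes that reached or passed the WW48 level under stress.

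The most abundant member of all had no description. Zm00001d049541, named after its values were seen, had 232, 322 and 342 CPM in WW24, 749, 516 and 507 CPM in WW48, 464, 472 and 409.9 CPM in WS24 and 553, 492 and 648 CPM in WS48. Its WS24 libraries lay between the well-watered groups, above WW24 and below WW48, and its WS48 libraries overlapped WW48.

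Other members came from families of enzymes that modify small molecules, or had no known role. Of 28 described UDP-glycosyltransferases, which attach sugars to small molecules, 3 were members. Zm00001d021219 was at 3.61 ± 0.539 and 7.74 ± 0.86 CPM in WW24 and WW48 and 6.33 ± 0.647 and 3.67 ± 1.21 CPM in WS24 and WS48, Zm00001d052210 at 6.07 ± 1.43 CPM in WW48 against 4.68 ± 0.536 CPM in WS48, and Zm00001d049925 at 3.63 ± 1.17 and 0.629 ± 0.254 CPM. Of 35 described cytochrome P450s, Zm00001d005823 averaged 16.1 ± 1.92 CPM in WW48 against 1.45 ± 0.162 CPM in WS48 and Zm00001d020673 averaged 7.54 ± 2.52 and 2.09 ± 0.617 CPM. The acyltransferase Zm00001d039615 of the HXXXD type, a family that acylates many plant products, went from 2.49 ± 1.12 to 12.5 ± 4.34 CPM and was at 0.0629 ± 0.0268 and 0.451 ± 0.328 CPM under stress. The DUF247 gene Zm00001d024489, of unknown function, had 6.49, 2.12 and 2.1 CPM in WW48 and 0 counts in all WS24 libraries, which makes it at least 151-fold higher in WW48 than WS24 against a floor of 3 counts over that group (counting error only). The gene Zm00001d007726, described as a hydrolase of valine breakdown, had 1.73, 0.0234 and 0.0643 CPM in WW24 and 2.66, 7.37 and 2.06 CPM in WW48, and at most 0.1 CPM in a stressed library.

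The contrast of WS48 with WS24 held no library of the conditions, and asked whether these transcripts also rose with time under stress. The fit behind it took its scaling and its estimate of the spread from all 12 libraries, including those that chose the members. Its SE and p-values are thus not fully independent of the conditions. By the quasi-likelihood test of edgeR, adjusted over all 26746 features by the Benjamini-Hochberg method, 12 members rose (3.64%, against 0.34% of all features) and 2 fell (0.606%, against 0.568%), where calls had adjusted p up to 0.05 and a log2 change of 1 or more either way. By adjusted p alone, 14 were higher (4.24%, against 0.804%) and 2 lower (0.606%, against 1.22%). At an unadjusted p under 0.05, 92 members were higher (27.9%, against 7.05%) and 22 lower (6.67%, against 7.78%). The median log2 change was 0.23 over the members and 0.00 over all features, and 230 members (69.7%, against 50.1%) had a change above 0. Every WS48 library lay above every WS24 library for 89 members (27%, against 10.4%) and below for 24 (7.27%, against 11.4%). The median log2 ratio of WW48 to WW24 means, set by the conditions, was 1.13.

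WS48 replicate 3 carried part of this. Without it the median log2 change was 0.09, 57.6% of members against 47.3% of all features were above 0, and 5 members were called higher, 4 of them among the 12. Leaving out single stressed libraries gave 4 to 14 members called higher and 1 to 3 called lower. Calls higher numbered 4 without WS24 replicate 1 and 5 without WS24 replicate 3 or WS48 replicate 1. Without WS48 replicate 1, 1 was called lower. Over all features the number called higher also fell in each omission, from 91 to between 44 and 77. It was 50 without WS24 replicate 1, 66 without WS24 replicate 3, 44 without WS48 replicate 1 and 56 without WS48 replicate 3. For 10 of the 12, WS48 replicate 3 was the highest WS48 library, as it was for 83.6% of all members and 42.3% of all features tested. A test against a log2 change of 1 itself (glmTreat in edgeR) called 0 members either way, DESeq2 called 23 higher and a fit of the 6 stressed libraries alone 19. Over all features these called 7, 155 and 119 higher. Among the 260 features taken without WW48 replicate 1, 10 were called higher and 2 lower.

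Only 3 of the 12 were described, and all 3 were the oxidoreductases and dehydrogenase given above. Zm00001d031666 rose by a log2 change of 1.76 (SE 0.36, edgeR adjusted p = 0.0257), Zm00001d047441 by 2.00 (SE 0.37, edgeR adjusted p = 0.016) and Zm00001d049031 by 3.75 (SE 0.80, edgeR adjusted p = 0.0324), with no overlap between WS24 and WS48. When single stressed libraries were left out, the call of the first was lost in all 6 omissions (log2 change 1.56 to 1.89, edgeR adjusted p 0.0553 to 0.107). That of the second was lost in 3, without WS24 replicate 1 (1.95), WS24 replicate 3 (1.79) or WS48 replicate 3 (1.61). That of the last was lost in 4, without WS24 replicate 1 (3.40), WS24 replicate 3 (3.24), WS48 replicate 1 (4.03) or WS48 replicate 3 (2.82). The last rests on few counts in WS24 and was not called with the replicate numbers as a block (log2 change 3.6). Despite the rise, none of the 3 reached the well-watered range at 48 h of stress. Each SE is approximate, taken from the log2 change and its F statistic.

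Undescribed features made up the other 9. Of the 12 calls, 4 were kept in each of the 6 omissions of a stressed library, all 4 of undescribed features, among them both that follow. Zm00001d014101 had the smallest adjusted p. It was at 9.55, 7.22 and 7.42 CPM in WW24 and 14, 15.4 and 15 CPM in WW48, then 9.2, 7.8 and 9.47 CPM in WS24 and 21.9, 24.8 and 17.5 CPM in WS48, and its log2 change was 1.28 (SE 0.14, edgeR adjusted p = 0.000951). Its WS24 libraries overlapped WW24 and its WS48 libraries lay above all WW48 libraries, so it was higher at 48 h in both treatments, from overlapping levels at 24 h. Zm00001d048631 had 2.78, 2.11 and 2.36 CPM in WW24, 5.5, 7.39 and 6.15 CPM in WW48, 0.445, 0.832 and 0.45 CPM in WS24 and 3.26, 2.24 and 4.83 CPM in WS48, and its log2 change was 2.57 (SE 0.31, edgeR adjusted p = 0.00189). It started lower under stress and stayed below WW48 in every library. Of the 12, 9 had every WS24 library below every WW24 library, against 33.3% of all members and 18.9% of all features tested. For 9 of the 12 every WS48 library lay below every WW48 library, against 58.2% and 17.8%. Both counts use the WW libraries that chose the members and were not tested.

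The 2 members that fell under stress, Zm00001d022280 and Zm00001d022283, have identifiers 3 numbers apart and no description. The first had 6.98, 8.67 and 14.1 CPM in WW24, 19.5, 28.7 and 22.9 CPM in WW48, 27.5, 23.6 and 21.1 CPM in WS24 and 9.15, 10 and 9.93 CPM in WS48, and its log2 change was −1.31 (SE 0.22, edgeR adjusted p = 0.00959). The second had 3.03, 3.66 and 5.19 CPM in WW24, 7.14, 8.98 and 8.95 CPM in WW48, 8.54, 7.26 and 8.07 CPM in WS24 and 4, 3.72 and 3.15 CPM in WS48, and its log2 change was −1.14 (SE 0.19, edgeR adjusted p = 0.0106). In both, WS24 overlapped WW48 and WS48 overlapped WW24, so the 2 time courses were near mirror images. Their reads may be shared if they are copies of one another, and their agreement is then not that of 2 genes. The call of the first was lost without WS48 replicate 1 (log2 change −1.27), and that of the second was kept in all 6 omissions.

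**Figure D4:**
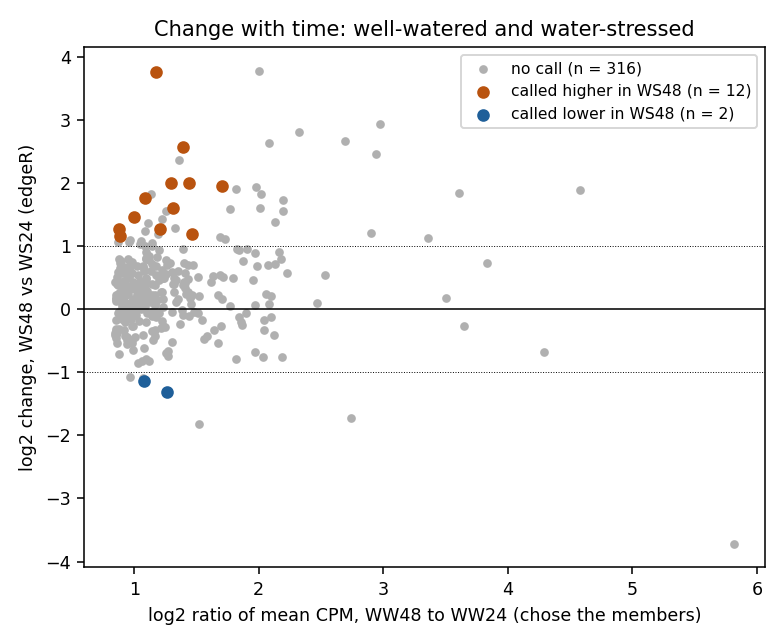
For each of the 330 members, the log2 ratio of WW48 to WW24 mean CPM (x axis, the values that chose the members) and the log2 change of WS48 against WS24 from edgeR (y axis), with dotted lines at 1 and −1. Coloured points are the 12 called higher and the 2 called lower in WS48, and most of the other 316 lie between −1 and 1.

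No other described member was called in the comparison of WS48 with WS24. The 12-oxophytodienoate reductase had a log2 change of 1.23 (SE 0.34, edgeR adjusted p = 0.0908), the metal carrier Zm00001d015133 1.29 (SE 0.41, edgeR adjusted p = 0.141) and the chalcone and stilbene synthase 1.89 (SE 0.54, edgeR adjusted p = 0.102), none past the threshold in the fit of all 12 libraries. All 3 were called when the 6 stressed libraries were fitted alone. The most abundant described member, Zm00001d020400, had a log2 change of 0.13 (SE 0.32, edgeR adjusted p = 0.899), the peroxidase Zm00001d007160 0.09 (SE 0.35, edgeR adjusted p = 0.945) and the CAP gene Zm00001d029558 0.49 (SE 0.44, edgeR adjusted p = 0.676). For these 3, a log2 change of 1 or more was needed for a call, and none of their WS48 groups stood clear of WS24.

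Among all 1507 described features tested, 22 rose with time under stress (1.46%, against 0.34% of all features) and 47 fell (3.12%, against 0.568%). Of 29 described peroxidases, 1 rose and 2 fell from WS24 to WS48, and of 17 expansins the numbers were also 1 and 2. Of 9 ethylene features 2 rose and 0 fell, of 8 oxylipin and jasmonate features 1 rose and 0 fell, and of 15 nitrogen features 1 rose and 0 fell, none of them a member. Of 48 defence proteins 0 rose and 2 fell, of 34 phenylpropanoid features 0 and 1, and of 65 features of suberin, cutin, wax and lipid transfer 2 rose and 7 fell. Most of these features had been listed by the study for their difference between WS and WW in these libraries, so the counts are not independent of treatment.

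Signalling genes and proteases added a few members. The calcium-binding EF-hand gene Zm00001d005766, 1 member of 28 described calcium features, had 8.69, 6.84 and 5.47 CPM in WW24, 18.9, 14.4 and 16.2 CPM in WW48, 2.48, 3.28 and 2.17 CPM in WS24 and 2.84, 3.18 and 5.15 CPM in WS48, and its stressed libraries lay below the well-watered ones. The kinase Zm00001d020429 was at 3.15 ± 0.547 and 5.86 ± 0.514 CPM in WW24 and WW48 and at 1.06 ± 0.0489 and 1.21 ± 0.293 CPM in WS24 and WS48. Of 26 described proteases, which cut other proteins, 2 were members. The aspartyl protease Zm00001d021677 averaged 12 ± 4.02 CPM in WW48 against 2.27 ± 1.24 CPM in WS48, and the serine carboxypeptidase Zm00001d025195 at 23.2 ± 3.5 and 4.64 ± 0.886 CPM. The member of the 2-oxoglutarate dependent oxygenases, Zm00001d012819, had 3.3, 4.03 and 6.11 CPM in WW24, 14.3, 7.39 and 7.01 CPM in WW48, 4.8, 6.14 and 4.47 CPM in WS24 and 7.15, 4.37 and 8.87 CPM in WS48, where WS48 overlapped both well-watered groups.

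Some members had close identifiers. In all, 50 members had another member within 5 identifier numbers. How many features of any set of this size would do so was not examined. The genes Zm00001d007157 (Ole e 1 and extensin family) and Zm00001d007160 (peroxidase) lay 3 numbers apart and were both low under stress, as were the kinase Zm00001d011656 (6.08 ± 3.38 CPM in WW48 and 1.56 ± 0.44 CPM in WS48) and the adjacent Zm00001d011657, of the AWPM-19-like family (9.89 ± 3.49 and 1.91 ± 0.49 CPM), the latter named after its values were seen. Others parted: Zm00001d024512, the terpenoid cyclase, was lower in WS48 than in WW24, while the undescribed member 3 numbers on had 14.1, 17.3 and 16.9 CPM in WW24, 40.3, 25.4 and 25.2 CPM in WW48, 50.7, 50.9 and 55.8 CPM in WS24 and 38.1, 35.9 and 51.2 CPM in WS48. Whether close numbers mean neighbouring genes was not examined here.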

How the data were processed

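RNA was sequenced from primary root tips in 12 libraries, 3 in each of 4 groups, with groups and replicate numbers taken from the sample titles. The authors deposited raw counts per feature, which they made by aligning paired-end reads of strand-specific libraries with HISAT2 and tallying them over exons with HTSeq. Versions 1.0 and 0.6.1 and the build B73 RefGen_v4 stand in the submitters' processing notes, and the study's methods add an assembly of FR697. Which strand setting the tally used was not given in any source used here. Values of antisense or overlapping genes are uncertain for that reason, and those of near-identical copies because reads may align to either. The normalized values that the authors deposited beside the counts were treated as a score, since they were rounded, and were not tested.

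CPM was computed over the sum of gene rows, without the 4 summary lines of the counter, which held 19.3 to 29.3% of all reads. Gene counts per library ranged from 40005384 to 54863708, and floors cover counting error only. Tests used edgeR 4.0.16 (TMM, filterByExpr with a minimum count of 10, 1 quasi-likelihood fit of all 12 libraries), with DESeq2 1.42.0 as an alternative. The procedure was tested on simulated data. Positions and ratios used means in CPM, with 0.1 CPM added before logarithms.

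The members and gene lists were chosen with earlier results of these data known. Lists were formed by words in the descriptions of 1583 features, so a list can hold genes that share only a word with its name. Named genes were the 8 described members highest in WW48, the 8 with the highest ratio, those called (up to 6 described and 2 undescribed each way), the 4 highest and 4 lowest in WS48 relative to WW48 and up to 3 per list, 56 in all. Replicate numbers did not pair the libraries. Alternatives were other scalings, filters, fits and conditions and the omission of each library. The set taken without WW48 replicate 1 was added after the data were seen.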

Additional observations from a re-analysis of the deposited data

Results flagged for a closer look

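For 24 members (7.27%, against 11.4% of all features tested for the WS order alone) every WS48 library lay below every WS24 library, while every WW48 library lay above every WW24 library, so the change with time ran in opposite directions in the 2 treatments. The well-watered direction was fixed by the choice of members, and the difference between the treatments was not tested. Among named members the log2 changes of WS48 against WS24 were −1.08 for the nitrate transporter 2.4 gene Zm00001d014976, −0.79 for the UDP-glucosyl transferase Zm00001d021219, −0.54 for the methyltransferase Zm00001d038891 and −0.49 for the MATE efflux gene Zm00001d053234. They were −1.31 and −1.14 for the undescribed Zm00001d022280 and Zm00001d022283, the only members of the 24 that passed the test.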

How the results depend on the processing

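The number of members followed the limits of the conditions, with 679 at a ratio of 1.5, 105 at 2.5, 544 at a minimum of 1 CPM and 157 at 10 CPM, and 260 to 502 when single well-watered libraries were left out (502 without WW24 replicate 1). Of members, 12 were called higher and 2 lower in WS48. The counts were 19 and 3 in a fit of the 6 WS libraries alone, 23 and 3 with DESeq2, and 0 and 0 with glmTreat. Over all features 91 were called higher and 152 lower. These counts were 119 and 296 in the WS libraries alone, 155 and 265 with DESeq2, 7 and 1 with glmTreat, and 215 and 326 by adjusted p alone. Leaving out single libraries gave 4 to 14 members called higher and 1 to 3 lower, and 44 to 77 and 54 to 112 over all features. It gave 31 to 52 members with every WS48 library above every WW48 library (52 without WW48 replicate 1), with no share over all features computed for these omissions. No other scaling or filter moved these counts by over 1.5 times.

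Same-numbered libraries did not deviate together (correlations of 0.01, −0.05 and −0.07 for WS24 with WS48), and the replicate block gave 8 members called higher, all among the 12, and 2 lower. It left Zm00001d049031 uncalled.

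The sign of the change from WS24 to WS48 turned in some omissions for 15 named members, none of them called. The ranges over omissions were −0.17 to 0.26 for Zm00001d000107, −0.25 to 0.39 for Zm00001d007160, −3.57 to 1.85 for Zm00001d007726, −0.092 to 0.35 for Zm00001d007896, −0.27 to 0.13 for Zm00001d014695, −0.13 to 0.56 for Zm00001d020400, −0.36 to 0.26 for Zm00001d020673, −0.20 to 0.65 for Zm00001d021677, −0.34 to 0.13 for Zm00001d025195, −0.052 to 0.11 for Zm00001d028151, −0.36 to 0.82 for Zm00001d029558, −0.11 to 0.38 for Zm00001d032083, −0.60 to 0.98 for Zm00001d035111, −0.11 to 0.25 for Zm00001d047194 and −1.26 to 0.75 for Zm00001d048016. The cause was not tested. Depth limits the members under 1 CPM, 56 in WS24 and 47 in WS48, where a few counts set a fold.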

Other observations

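Libraries that stood high for the members were compared feature by feature. The deviation of WW48 replicate 1 from the other WW48 libraries and that of WS48 replicate 3 from the other WS48 libraries, on the log2 scale, had a Pearson correlation of 0.23 and a Spearman correlation of 0.23 over the 330 members, and 0.17 and 0.25 over all 26746 features tested. These are correlations across features of the same libraries, which are not independent replicates, and are given as a description. Over the members, the log2 ratio of WW48 to WW24 and the log2 change of WS48 against WS24 had a Pearson correlation of 0.11 and a Spearman correlation of 0.21, also a description.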
